A study of Mus musculus with 10 samples.

Results

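The calcitonin receptor gene Calcr, its relative Calcrl and the 3 genes of their partner proteins, Ramp1, Ramp2 and Ramp3, were followed in lists of accessible chromatin from muscle stem cells. A region belonged to a gene if its strongest summit, taken by the caller's −log10 q, lay within 100 kb of the gene's span in mm10 (GRCm38). This gave 103 of 117284 regions in the list for aged cells and 124 of 131656 in the list for young cells. The assay was ATAC-seq, which maps open chromatin by letting a transposase insert adapters where DNA is not wrapped tightly. All cells of both lists had received prostaglandin E2 (PGE2), an inflammatory lipid mediator released after muscle injury.

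The cells were muscle stem cells of C57BL/6 mice with no genetic change named in the labels, sorted by flow cytometry for α7-integrin and CD34. Aged mice were 20 to 25 months old and young mice 8 to 20 weeks old, and all cells spent 2 h in serum-containing medium with bFGF. The labels describe 3 aged and 2 young libraries with PGE2, and 3 aged and 2 young libraries with 0.1% DMSO as vehicle, which were not analysed here. The sources used here give neither sex nor the number of mice per library. The deposited data hold 1 list per age and nothing per library. No difference below therefore has a replicate error or a p-value, and a difference by age cannot be told apart from a difference in the response to PGE2. Intervals cover counting error only, and neighbouring regions are not independent.

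Calcr encodes a receptor of the class B family that couples to Gs and raises cAMP. In mouse muscle stem cells it marks the dormant state and holds cells in it through cAMP and protein kinase A. Calcrl encodes the calcitonin receptor-like receptor, which reaches the cell surface only with a receptor activity-modifying protein. With RAMP1 it binds the neuropeptide CGRP, and with RAMP2 or RAMP3 it binds adrenomedullin, a peptide best known for its action on blood vessels. With a RAMP, the calcitonin receptor itself becomes a receptor for amylin.

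The 250 bases before a start site are shown for the 4 genes that have an entry in the RefSeq promoter table (GRCm38.p6), because accessibility at these starts separates the genes below. Ramp2 was not matched in that table. Capitals mark TGACG or its reverse complement CGTCA, the core of the cAMP response element.
Calcr, chr6:3763624-3763873, minus strand: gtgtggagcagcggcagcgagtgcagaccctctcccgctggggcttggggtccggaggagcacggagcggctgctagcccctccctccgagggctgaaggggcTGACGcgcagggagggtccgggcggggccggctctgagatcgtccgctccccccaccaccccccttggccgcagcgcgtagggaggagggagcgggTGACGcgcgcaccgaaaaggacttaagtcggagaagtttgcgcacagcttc
Calcrl, chr2:84425267-84425516, minus strand: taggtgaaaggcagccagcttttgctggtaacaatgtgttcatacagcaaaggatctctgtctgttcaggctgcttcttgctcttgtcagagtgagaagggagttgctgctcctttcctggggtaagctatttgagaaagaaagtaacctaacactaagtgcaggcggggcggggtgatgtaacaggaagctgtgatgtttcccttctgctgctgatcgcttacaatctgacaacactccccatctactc
Ramp1, chr1:91179572-91179821, plus strand: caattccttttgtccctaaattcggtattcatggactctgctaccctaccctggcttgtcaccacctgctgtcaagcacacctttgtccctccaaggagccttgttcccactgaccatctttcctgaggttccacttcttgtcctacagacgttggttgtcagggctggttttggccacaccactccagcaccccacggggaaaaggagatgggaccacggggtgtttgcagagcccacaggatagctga
Ramp3, chr11:6658283-6658532, plus strand: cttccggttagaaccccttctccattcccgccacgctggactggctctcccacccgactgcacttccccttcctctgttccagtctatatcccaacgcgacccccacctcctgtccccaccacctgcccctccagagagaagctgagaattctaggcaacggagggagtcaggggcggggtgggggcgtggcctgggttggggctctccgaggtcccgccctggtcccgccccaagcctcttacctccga

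The Calcr stretch lies before its start at 3763623 and held 2 copies of TGACG, from −147 to −143 and from −51 to −47 counted from the start site. It was rich in G and C (70.8%) and had 24 CG pairs, more than 88.0% of the 32851 promoters in the table. The stretch before a second annotated Calcr start, at 3764713, held 1 copy, from −42 to −38. The stretches of Calcrl, Ramp1 and Ramp3 held 0 copies. Of all promoters of this length, 17.8% held at least 1 copy on either strand and 3.90% at least 2. The full element TGACGTCA, which holds 2 overlapping copies of the core, was in none of these stretches and in 1.55% of all promoters. The E-box CANNTG, the site class of myogenic factors, occurred once each before Ramp1, Ramp3 and the second Calcr start, and in 66.2% of all promoters. A match of letters is a description and not a binding site.

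Of regions at or inside the 5 genes, those of Calcr had the highest folds in each list, at its start and above all at a site inside the gene. Calcr spans 79036 bp on chromosome 6 (3685678 to 3764713, gene 12311). A region 22.2 kb into the gene reached 87.9-fold over background in aged cells and 109-fold in young cells, as the authors' caller gave it. It lay at the 99.3th percentile of the aged list and the 98.8th of the young list, where 100 is the strongest region. Folds and ranks describe a region within its own list and do not measure a change between ages. The strongest summits of this region lay 4 bp apart, at 3741432 in aged and 3741428 in young cells. The pileup there, recovered from the fold, was 1828 in aged and 2473 in young cells. The region was 2346 bp wide in aged and 2350 bp in young cells, and it held 5 aged and 6 young summits. Its second summit, 21.4 kb into the gene, reached 36.7-fold in aged and 40.3-fold in young cells. The strongest region in the span or within 1 kb of it was above that of 95.9% of 21887 protein-coding genes in the aged list and 91.7% in the young list. Genes without any region count among these, and the ranking was not corrected for gene length.

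The Calcr start was covered from end to end of the promoter stretch printed above, all 250 bases, in aged and in young cells. Its strongest summit lay 64 bp before the start in aged cells (36.1-fold, 93.3th percentile) and 46 bp before it in young cells (40.01-fold, 91.8th percentile). The median start region of genes open at both ages had 30.4-fold in the aged list and 48.2-fold in the young list. In each list the site inside the gene exceeded the start. The ratio of their summit pileups was 2.44 in aged cells (95% counting interval 2.24 to 2.66) and 2.72 in young cells (2.52 to 2.94). These intervals overlap. The aged list held 3 regions around the start, of 2308, 411 and 213 bp, which a single young region of 3114 bp overlapped. The aged regions lay only 82 and 84 bp apart, and merging of rows up to 100 bp apart joins them. Their separation therefore depends on the merging rule.

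**Figure D1:**
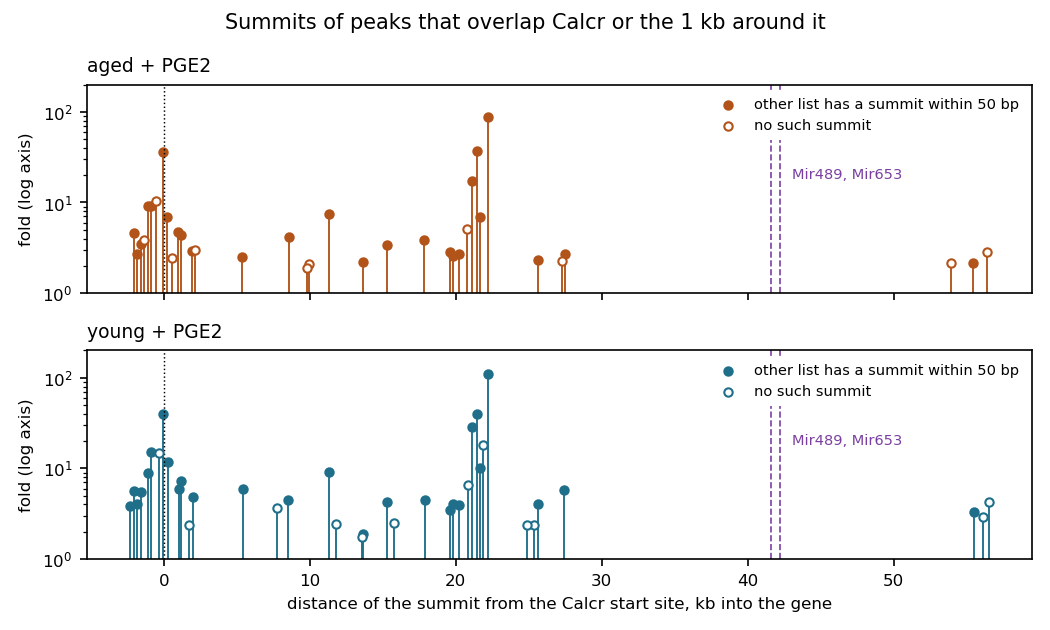
Fold over background (log axis) of every summit in peaks that overlap Calcr or the 1 kb around it, by distance from the start site in kb, for aged cells (top) and young cells (bottom). Filled points have a summit of the other list within 50 bp (26 of 36 aged and 27 of 39 young summits). The tallest summit stands 22.2 kb into the gene in both panels, followed by one 21.4 kb inside and one at the start of nearly equal height, and the stretch around the microRNA genes (dashed lines) is empty.

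Between the start and 27.5 kb inside Calcr lay a row of weaker regions, most of them seen at both ages. The one 11.3 kb inside had 7.54-fold in aged and 9.24-fold in young cells. Relative to the start, the regions 5.37 and 27.5 kb inside stood lower in aged than in young cells. At 5.37 kb the pileup ratio was 0.068 (counting interval 0.0502 to 0.0904) in aged and 0.149 (0.123 to 0.178) in young cells. At 27.5 kb it was 0.0733 (0.0547 to 0.0965) in aged and 0.145 (0.120 to 0.175) in young cells. Intervals overlapped for the other shared regions inside Calcr compared in this way, and the comparison was chosen after the values were seen. The span held 18 regions in each list, covering 11.3% of it in aged and 14.4% in young cells. Of the 18, 2 aged and 4 young regions were not overlapped in the other list. They are called aged-only and young-only here, classes that hold 10.7% of all aged and 28.2% of all young regions. The 2 aged-only regions lay 9.94 and 53.9 kb inside, at 2.11-fold and 2.16-fold. The 4 young-only regions lay 7.73, 11.8, 15.8 and 24.8 kb inside, at 3.65-fold, 2.47-fold, 2.51-fold and 2.38-fold. With 1 region outside the span at each age, the Calcr window had 3 aged-only of 23 and 5 young-only of 21 regions. These shares, 13.0% and 23.8%, lay near those of the whole lists. With a region of the other list within 1 kb counted as shared, 3 of 23 aged regions near Calcr were still aged-only, against 5.74% of all aged regions, and 0 of 21 young regions were young-only, against 19% of all young regions.

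Outside the gene, 2 stronger sites stood at both ages. One lay 89.6 kb from the start and past the far end of the gene, at 22.5-fold in aged and 24.8-fold in young cells. Another, 143 kb from the start, was nearest to Vps50, a gene of endosomal trafficking, at 25.8-fold in aged and 28.1-fold in young cells.

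Calcr also hosts the microRNA genes Mir489 and Mir653 on its own strand. In mouse, miR-489 is known to keep muscle stem cells dormant. Both arms of miR-489 are shown because this host gene carries them, with the seed (bases 2 to 8) in capitals, from the RefSeq miRNA table.
mmu-miR-489-3p: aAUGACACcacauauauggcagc
mmu-miR-489-5p: uGUCAUAUgugugaugacacuuucu

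Of 1738 mature entries in that table, the seed of miR-489-3p was shared by 1 other, mmu-miR-425-5p, and the seed of miR-489-5p by none. The Mir489 hairpin (3721897 to 3722003) lies 41.6 kb into Calcr, and no region of either list touched it. The nearest region was 12133 bp away in the aged list and 13708 bp in the young list, and both were weak, at 2.16-fold and 3.30-fold. The next on the other side was 14094 bp away in aged and 13992 bp in young cells. Mir653 (3721301 to 3721385) lay in the same gap.

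Calcrl was open at its start at both ages, and aged cells had more weak regions inside the gene. Calcrl spans 94780 bp on chromosome 2 (84330626 to 84425405, gene 54598). Its start region had 18.6-fold in aged cells (85.1th percentile) and 24.0-fold in young cells (86.2th percentile), with summits 40 and 25 bp before the start. The region covered all 250 printed bases at both ages. The span held 14 aged and 7 young regions, covering 5.70% of it in aged and 4.48% in young cells. Of these, 6 of 14 aged regions (42.9%, exact binomial interval 17.7 to 71.1) were aged-only and 0 of 7 young regions were young-only. Among regions inside any protein-coding gene, 10% of aged and 30.3% of young regions were one-age. The exact interval of the young share ran to 41.0%.

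The 6 aged-only regions inside Calcrl lay between 28.5 and 43.5 kb from the start, and all were weak. Their folds were 2.55 (28.5 kb), 2.45 (32.4 kb), 2.35 (36.99 kb), 1.83 (37.6 kb), 2.31 (41.2 kb) and 2.40 (43.5 kb). Their summit pileups ran from 37 to 52, where the smallest in the aged list was 37. Only 2 of them lay more than 1 kb from a young region, by 5368 and 9255 bp. The other 4 lay in a stretch with 3 stronger regions that both lists hold, 37.96, 39.9 and 43.9 kb inside in aged cells. In this stretch from 36.99 to 43.92 kb, the longest run of aged regions inside the gene with summits at most 3 kb apart, aged cells had 7 regions over 3311 bp, and young cells had 3 regions over 2159 bp. At least as many aged-only regions inside the span were counted in 180 of 21887 protein-coding genes, a number looked up after the Calcrl values were seen and not corrected for gene length.

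Within its own list, each of the 3 shared regions of that stretch stood higher relative to the Calcrl start in aged cells than in young cells. The region 43.9 kb inside had 11.9-fold in aged and 6.16-fold in young cells. Its pileup was 0.636 of that at the start in aged cells (counting interval 0.540 to 0.748) and 0.256 in young cells (0.211 to 0.308). For the region 39.9 kb inside (10.6-fold in aged, 4.67-fold in young cells) the ratio was 0.568 (0.480 to 0.673) in aged and 0.193 (0.155 to 0.238) in young cells. For the region 37.96 kb inside (6.87-fold in aged, 6.07-fold in young cells) it was 0.367 (0.301 to 0.446) in aged and 0.252 (0.207 to 0.304) in young cells, with intervals that just overlap. The intervals also overlapped for the region 88.7 kb inside, near the far end, with 0.633 (0.537 to 0.745) in aged and 0.599 (0.521 to 0.689) in young cells. The weak region 65.3 kb inside, beyond that stretch, also stood higher in aged cells, at 0.225 (0.176 to 0.284) against 0.134 (0.104 to 0.172) in young cells. These intervals did not overlap. The region 1.21 kb inside had 0.132 (0.0964 to 0.177) in aged and 0.180 (0.144 to 0.224) in young cells, with intervals that overlap. All of these ratios share the start pileup, 387 in aged and 544 in young cells. At 37.96 kb the pileup itself was 142 in aged and 137 in young cells. The comparison was chosen after the values were seen, and the spread of these ratios between mice is unknown.

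**Figure D2:**
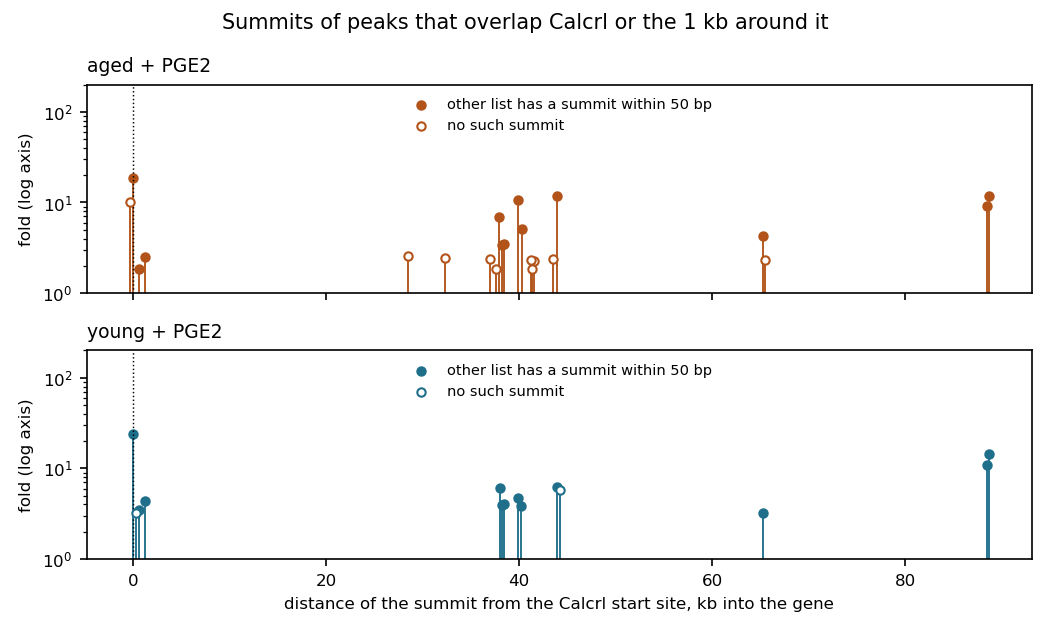
Fold over background (log axis) of every summit in peaks that overlap Calcrl or the 1 kb around it, by distance from the start site in kb, for aged cells (top) and young cells (bottom). Open points have no summit of the other list within 50 bp (12 of 22 aged and 12 of 14 young summits have one). The cluster from 36.99 to 43.92 kb is denser in the upper panel, and the start stands highest in both.

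Across the whole Calcrl window, 10 of 29 aged regions (34.5%, 17.9 to 54.3) were aged-only and 2 of 22 young regions (9.09%, 1.12 to 29.2) were young-only. The lists as a whole had 10.7% and 28.2%. The 10 aged-only regions had folds of 1.83 to 3.03, all below the median strength of their list. Each list was also cut to its 58642 strongest regions. Then 1 of 13 aged regions near Calcrl was aged-only, against 11.1% of all aged regions. With a young region within 1 kb counted as shared, 3 of 29 remained aged-only, against 5.74% of all aged regions.

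Outside the Calcrl span, the strongest aged region lay 175 kb from the start, past the far end of the gene, at 16.5-fold. The strongest young region outside the span was nearest to Tfpi, which encodes an inhibitor of blood clotting, at 23.1-fold, 30.2 kb before the Calcrl start. The same site had 13.5-fold in aged cells. A region 4.66 kb before the start, between Calcrl and Tfpi, had 7.06-fold in aged and 13.95-fold in young cells.

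Ramp1 had a weak region before its start at both ages, and the stronger sites of its window belonged to neighbouring genes. Ramp1 spans 45375 bp on chromosome 1 (91179822 to 91225196, gene 51801). A weak region stood 583 bp before the start in aged cells (2.31-fold, 12.0th percentile) and 579 bp before it in young cells (3.57-fold, 36.9th percentile). A second young region covered the start itself, at 3.08-fold, and had no aged counterpart. It took in 108 of the 250 printed bases, and the aged regions took in 0. Inside the gene the order of the 2 shared regions differed. In aged cells the region 36.9 kb inside had 5.62-fold and that 30.1 kb inside had 3.36-fold. In young cells the region 36.9 kb inside had 3.48-fold and that 30.2 kb inside had 7.48-fold. The ratio of their pileups was 1.68 in aged cells (counting interval 1.24 to 2.30) and 0.462 in young cells (0.348 to 0.607), also chosen after the values were seen.

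In the Ramp1 window 0 of 15 aged regions were aged-only, for which the exact interval ran to 21.8%, and 12 of 27 young regions were young-only (44.4%, 25.5 to 64.7). The shares of the whole lists, 10.7% aged and 28.2% young, lie inside both intervals. The young-only regions had folds of 2.20 to 4.31. Of the 12, 4 were nearest to Lrrfip1, 3 to Ube2f, 2 to Scly and 3 to Ramp1 itself. The strongest regions of the window were those nearest to Ube2f, an enzyme gene of the NEDD8 pathway (71.5-fold in aged, 107-fold in young cells), and Scly, which encodes selenocysteine lyase (67.2-fold in aged, 79.3-fold in young cells). The third was nearest to Lrrfip1, at 9.61-fold in aged and 17.8-fold in young cells. The high folds of this window were therefore not at Ramp1.

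Ramp2 was open at its lower-numbered end at both ages. Ramp2 spans only 1917 bp on chromosome 11 (101246334 to 101248250, gene 54409), in a gene-dense stretch. Of the 4395 genes judged by either end, as Ramp2 was, 64.4% had an end region at both ages. The end region of Ramp2 had 13.0-fold in aged cells (79.6th percentile) and 19.8-fold in young cells (83.6th percentile). It was 1373 bp wide in aged and 2195 bp in young cells, and it covered 36.9% of the gene in aged and 41.8% in young cells. The young region also overlapped a separate aged region of 428 bp (3.32-fold), which lay 125 bp from the aged end region. The strongest summit of the end region lay 86 bp inside the gene in aged cells and 79 bp outside it in young cells. A weaker aged summit (11.7-fold) stood 24 bp from the young one. In the window, 0 of 29 aged regions were aged-only, for which the exact interval ran to 11.9% and took in the 10.7% of the whole list, and 9 of 34 young regions were young-only (26.5%, 12.9 to 44.4), near the 28.2% of the whole list. None of these 9 had Ramp2 as its nearest gene. Other genes held the strongest sites, among them Plekhh3 (37.8-fold in aged, 43.4-fold in young cells), the γ-tubulin gene Tubg2 (27.2-fold in aged, 16.1-fold in young cells), the chemokine receptor gene Ccr10 (21.0-fold in aged, 35.6-fold in young cells) and the proteasome activator gene Psme3 (19.6-fold in aged, 35.1-fold in young cells).

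Ramp3 was the only one of the 5 genes with a start region at one age. Ramp3 spans 18973 bp on chromosome 11 (6658506 to 6677478, gene 56089). A young region covered the start and all 250 printed bases, at 3.96-fold and the 41.8th percentile of its list, with a summit 24 bp before the start. The aged list had no region inside Ramp3 or within 1 kb of it, and its nearest region ended 3012 bp before the young one began. A second young-only region, 8.29 kb inside, had 4.23-fold. Of the 17492 protein-coding genes with a start site in the table, 63.2% had a start region in both lists, 0.366% in the aged list alone, 2.5% in the young list alone and 33.9% in neither. Once the lists were cut to equal numbers of their strongest regions, the Ramp3 start had a region at neither age.

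Near Ramp3, 1 of 7 aged regions was aged-only (14.3%, 0.361 to 57.9) and 14 of 20 young regions were young-only (70.0%, 45.7 to 88.1), against 10.7% of all aged and 28.2% of all young regions. The aged-only region, nearest to Tbrg4, had 2.40-fold, and the young-only regions had 2.02-fold to 5.19-fold. Of the 14 young-only regions, 4 were nearest to Ramp3, 4 to Ccm2, 3 to Nacad, 2 to Tbrg4 and 1 to Wap, so the pattern ran over the neighbouring genes. Among the strongest regions in equal number, 2 of 5 young regions near Ramp3 and 2 of 7 near Ramp1 were young-only, against 15.4% of all young regions. A shared region, 3.41 kb before the start in aged and 3.44 kb in young cells, had 3.84-fold in aged and 10.1-fold in young cells. Another, past the far end of the gene and 36.98 kb from the start in aged and 36.96 kb in young cells, had 3.75-fold in aged and 13.0-fold in young cells. The strongest site of the window was nearest to Tbrg4, at 33.2-fold in aged and 55.6-fold in young cells, followed by Nacad, at 9.03-fold in aged and 17.0-fold in young cells.

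**Figure D3:**
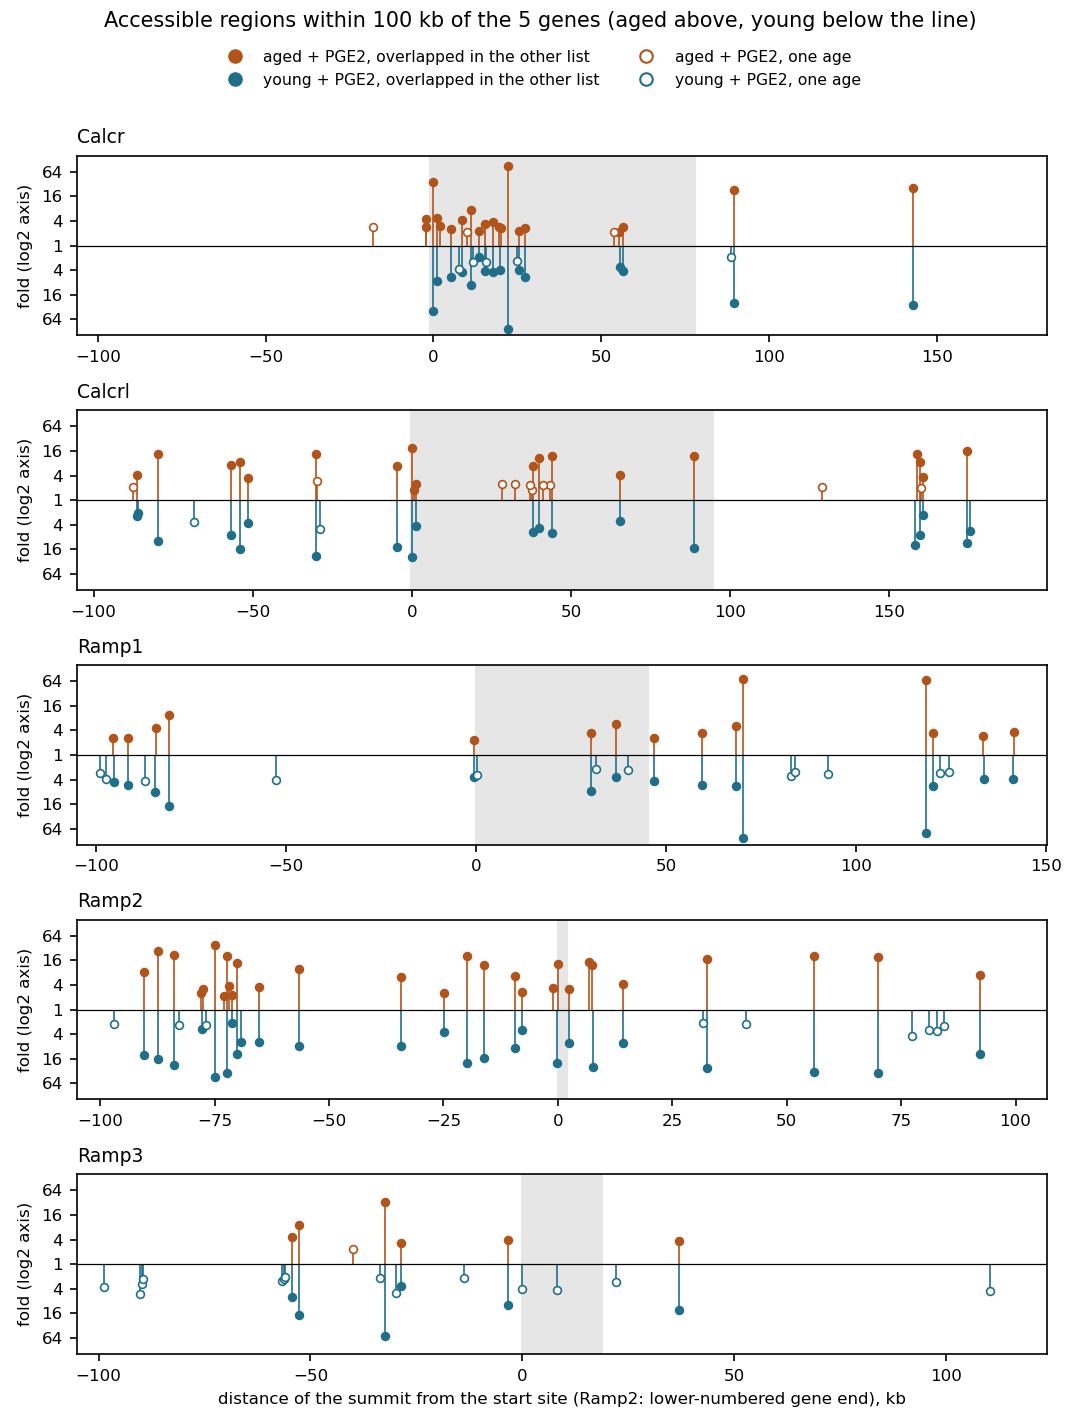
Fold over background (log2 axis) of each region within 100 kb of the 5 genes, by distance of its summit from the start site in kb, with aged regions above and young regions below the line. Grey marks the gene and open points mark one-age regions. Open points crowd above the line inside Calcrl and below it around Ramp1 and Ramp3.

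**Figure D4:**
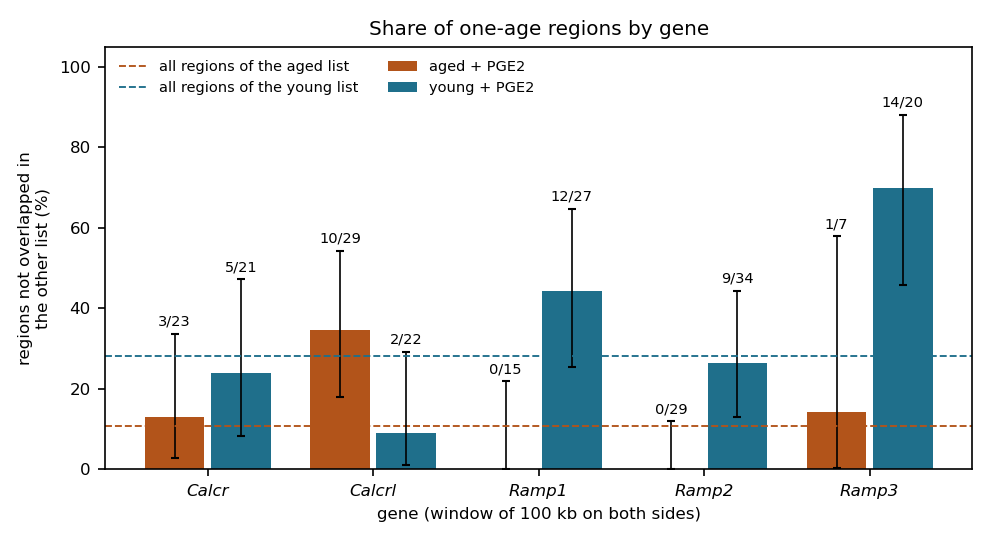
Percent of regions within 100 kb of each gene that are not overlapped in the other list, aged left of young, with 95% exact binomial intervals over regions. Counts stand above the bars, and dashed lines give 10.7% for the whole aged list and 28.2% for the whole young list. The aged bar of Calcrl and the young bar of Ramp3 rise furthest above their lines.

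Over all 5 windows, 14 of 103 aged regions (13.6%, 7.63 to 21.8) and 42 of 124 young regions (33.9%, 25.6 to 42.9) were one-age, against 10.7% and 28.2% in the whole lists. Of the 14 aged-only regions, 10 were near Calcrl, and of the 42 young-only regions, 26 were near Ramp1 or Ramp3. The one-age regions were weak, with a median of 2.33-fold in aged and 2.77-fold in young cells, as were all one-age regions of the lists, with 2.40-fold in aged and 2.73-fold in young cells. All 14 aged-only and 39 of the 42 young-only regions were below the median strength of their list. Sites that both lists hold were placed almost alike. Where an aged and a young region overlapped each other and no others, the median distance of their strongest summits was 11.5 bp over 68 pairs. For all 81213 such pairs it was 15.0 bp. The young region was the wider one in 52 of the 68 pairs (76.5%) and in 76.8% of all pairs.

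Among 8 ligand genes, 5 had a start or end region at both ages, 0 in aged cells alone, 1 in young cells alone and 2 in neither. Over all protein-coding genes, 63.2% of genes judged by start site and 64.4% of those judged by either end had a region at both ages, so 5 of 8 is near the usual share. Col5a1 had 45.03-fold in aged and 48.8-fold in young cells. Col5a2 had 25.4-fold in aged and 44.9-fold in young cells, and Col5a3 25.4-fold in aged and 38.2-fold in young cells. These genes encode chains of collagen V, which in mouse muscle is a reported ligand of the calcitonin receptor on stem cells. Calca, which encodes calcitonin and a CGRP peptide, had 18.2-fold in aged and 21.9-fold in young cells. Adm, the adrenomedullin gene, had 12.6-fold in aged and 20.0-fold in young cells. Adm2 had a weak start region in young cells alone (2.91-fold). Calcb, the gene of the second CGRP peptide, and Iapp, the amylin gene, had no start or end region at either age. In or within 1 kb of the gene, Calcb had 1 aged and 2 young regions, and Iapp 0 and 0.

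All 12 signalling genes were open at both ages, among them those of Gs, protein kinase A, the exchange factor Epac1 (Rapgef3), the arrestins and the Hippo pathway, against the same 63.2% and 64.4% of all genes. Prkaca, a catalytic subunit gene of protein kinase A, had 114-fold in aged and 189-fold in young cells. The β-arrestin gene Arrb2 had 75.9-fold in aged and 103-fold in young cells. Yap1, the Hippo pathway effector that Calcr signalling is reported to restrain in mouse muscle stem cells, had 56.1-fold in aged and 78.4-fold in young cells. Prkacb had 35.4-fold in aged and 60.2-fold in young cells.

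Calcr stood above the other class B receptor genes at its start. Of 13 such genes, 8 had a start or end region at both ages, 1 in young cells alone (Crhr1, 2.33-fold) and 4 in neither (Pth2r, Crhr2, Glp1r and Glp2r). These counts are near the shares of all genes by start site, 63.2% at both ages and 33.9% in neither. The highest were Vipr1 and Vipr2, which encode receptors of the neuropeptide VIP, with 15.5-fold and 14.3-fold in aged and 35.4-fold and 23.8-fold in young cells. Next came the parathyroid hormone receptor gene Pth1r, with 9.13-fold in aged and 16.5-fold in young cells, and the PACAP receptor gene Adcyap1r1, with 5.67-fold in aged and 10.7-fold in young cells.

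All 9 muscle stem cell markers had a start or end region at both ages, from 16.6-fold to 73.6-fold in aged and 26.7-fold to 111-fold in young cells. Calcrl and Ramp2 are also known as endothelial genes. Of 10 endothelial markers, 6 had a start or end region at both ages, with a median of 5.98-fold in aged and 10.8-fold in young cells. The range was 2.69-fold to 42.5-fold in aged and 8.01-fold to 58.6-fold in young cells. Cdh5 had one in young cells alone (1.98-fold), and Pecam1, Tie1 and Emcn had none at either age. The 6 open at both ages were Tek, which was the highest in each list, Erg, Cldn5, Egfl7, Esam and Kdr. In or within 1 kb of the gene, Pecam1 had 7 aged and 9 young regions, Cdh5 3 and 5, Emcn 1 and 2, and Tie1 0 and 0. In and within 1 kb of these 10 genes, 5 of 62 aged regions were aged-only and 12 of 69 young regions were young-only, against 10% of aged and 30.3% of young regions inside any protein-coding gene. Those shares leave out the 1 kb around genes, so they match these counts only roughly. The part of endothelial cells in the Calcrl and Ramp2 values was not tested, and fewer open cells cannot be told apart from a site less open in each cell. Regions at both ages were also counted for 5 of 6 fibroblast, 4 of 5 smooth muscle, 1 of 5 immune and 2 of 4 glial markers. All of these marker counts stand against 63.2% of genes by start site and 64.4% by either end. Ly6a, a fibroblast marker, had an end region in aged cells alone, and the smooth muscle marker Rgs5 and the glial marker Sox10 had one in young cells alone.

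The genes most like each receptor or partner gene were found over 4 values, the number of regions in or within 1 kb of the gene and the strongest fold there, in each of the 2 lists. For Calcr, with 19 aged and 18 young regions, they were Lrp1 (19 and 17 regions, strongest 79.1-fold in aged and 104-fold in young cells) and Oxr1 (18 and 19 regions, 82.0-fold and 116-fold). For Calcrl they were Meis2 (13 aged and 8 young regions) and Chrdl2 (13 and 9). For Ramp1 the most alike was Slc8a3 (3 aged and 6 young regions), and for Ramp2 they were B4galt7 and Zfp61 (3 aged and 2 young regions each). Likeness over so few values describes these lists alone. Ramp3 had no aged region in or within 1 kb of the gene and was not compared.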

How the data were processed

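The deposited files were 2 peak lists in the narrowPeak layout, one for aged and one for young cells after PGE2. The submitters' processing notes name Bowtie2 and the build mm10 (GRCm38). The caller was MACS, per the file names. The sources used here do not state its version and options, the read filters, any shift of read ends or which libraries were pooled. Each deposited row holds 1 summit with its fold ratio and −log10 q-value, as the authors' caller wrote them, and its offset in bp, the only deposited column of another unit used. Folds and −log10 q-values were used within a list only.

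Within each list every fold (100%, to 0.01 of a step) was a multiple of one smallest step. A pileup raised by 1 and divided by a constant background raised by 1 has that form, with a background of 19.8 in the aged and 21.7 in the young list. Pileups were recovered on that basis. Whether they count fragments or read ends is not stated, and intervals of pileup ratios treat the counts as independent. The smallest was 37 in the aged and 39 in the young list. The depth of each library is unknown. Regions covered 71589373 bases in the aged and 92231191 in the young list, and counts of one-age regions are read against the share in the whole list of that age.

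Touching or overlapping rows were merged (215838 aged and 265507 young rows), and the strongest summit was kept. A region was shared if 1 bp or more was overlapped in the other list. Windows reached 100 kb beyond gene spans of the RefSeq table for GRCm38.p6. In each list the farthest region inside any window lay 96166 bp (aged) and 99132 bp (young) from its gene, and the nearest outside 100234 and 100641 bp. A start was open with a region within 1 kb of a start site (17492 protein-coding genes) or, with no entry in the promoter table, of either gene end (4395 genes, Ramp2, Itga7, Pecam1, Col5a2 and others among them).

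Intervals are exact Clopper-Pearson at 95%, also for pileup ratios. Python 3.11.15, numpy 2.4.6, pandas 2.3.3, scipy 1.17.1 and matplotlib 3.10.9 were used, and merging and overlap were tested on simulated intervals. The genes, lists and rules were chosen with earlier results of these data known. Named genes were the 5 genes, the list genes open at one age with up to 4 open at both, genes nearest to the 3 strongest outside regions, and the 2 most alike, of which 1 is not reported here. Ly6a, Rgs5, Sox10, all 10 endothelial markers, Calcb, Iapp and the class B genes without a region were named after their values were seen. Alternatives covered the strength of rows, list length, overlap, merging, windows and assignment to genes.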

Additional observations from a re-analysis of the deposited data

How the results depend on the processing

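Of 116 values under 10 alternatives, 69 stayed within 1.5 times the reported count or in the same start class, and 47 moved. Start classes held with windows of 500 bp and 2.5 kb, and every count held when rows up to 100 bp apart were merged. At a −log10 q of at least 5, aged-only regions numbered 9 of 93 in all, against 8.99% of all aged regions. Among them were 1 of 19 regions near Calcr, 6 of 24 near Calcrl and 1 of 28 near Ramp2. Among the strongest regions in equal number, aged-only regions numbered 2 of 47 in all, against 11.1% of all aged regions. By gene they were 0 of 7 near Calcr, 1 of 13 near Calcrl, 1 of 6 near Ramp1 and 0 of 3 near Ramp3. Young-only regions under the same cut numbered 9 of 54 in all, against 15.4% of all young regions. By gene they were 2 of 8 near Calcr, 0 of 13 near Calcrl, 2 of 7 near Ramp1, 3 of 21 near Ramp2 and 2 of 5 near Ramp3. The starts of Ramp1 and Ramp3 had a region in 0 lists. With reciprocal overlap of 50%, aged-only regions numbered 33 in all, with 10 near Calcr, 2 near Ramp1, 7 near Ramp2 and 2 near Ramp3, and young-only regions 8 near Calcr and 5 near Calcrl, while that rule leaves 33.9% of all aged and 41.2% of all young regions without a partner. With the other list within 1 kb counted as shared, aged-only regions numbered 7 of 103 in all and 3 of 29 near Calcrl, against 5.74% of all aged regions. Under that rule young-only regions were 0 of 21 near Calcr and 1 of 22 near Calcrl, against 19% of all young regions. In windows of 50 kb, young-only regions numbered 20 of 66 in all, against 28.2% of the whole young list. Among them were 1 of 10 near Calcrl, 6 of 13 near Ramp1, 2 of 13 near Ramp2 and 6 of 10 near Ramp3. In the gene span and 1 kb around it, aged-only regions numbered 8 of 38 in all, with 6 of 14 at Calcrl and 0 at Ramp3, which had 0 aged regions there. Young-only regions in that setting numbered 9 of 35 in all, with 0 of 7 at Calcrl, 3 of 6 at Ramp1, 0 of 2 at Ramp2 and 2 of 2 at Ramp3. Inside any protein-coding gene, without the 1 kb around it, 10% of aged and 30.3% of young regions were one-age. Where the gene had to be the nearest one, 0 of 2 aged regions were aged-only for Ramp3. Young-only regions then numbered 12 of 49 in all, with 0 of 12 for Calcrl, 3 of 7 for Ramp1, 0 of 4 for Ramp2 and 4 of 6 for Ramp3. The whole lists had 10.7% aged-only and 28.2% young-only regions. The cause of these moves was not tested beyond what each setting removes. No paired analysis was possible because each age has 1 list with no value per library, and no library could be left out for the same reason. Weak regions near the caller's threshold limit what can be said of one-age sites.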
